A study of Mus musculus with 3 samples.

Results

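The canonical Wnt feedback targets described here are 10 genes that cells switch on when β-catenin signalling is active and most of whose products then act back on that signalling: Axin2, Nkd1, Rnf43, Znrf3, Notum, Apcdd1, Bambi, Lef1, Tcf7 and Sp5. The rows with these symbols were taken from a deposited single-cell count matrix of 51923 genes, and all 10 symbols were found, so that the set is 10 of 51923 rows. The set was named by function and its choice used no measured value of this matrix, although earlier results of these data were known when it was proposed. The cells came from mouse embryos carrying Mesp1-Cre, the Cre-dependent red reporter Ai9 and a floxed allele of Wls, on a C57BL/6 background. Controls were Wls fl/+ and mutants Wls fl/fl. Both genotypes therefore carried the Cre, the reporter and at least 1 floxed allele, and only reporter-positive cells, sorted by flow cytometry, were sequenced. Mesp1-Cre is active in early mesoderm, so that other tissues of the mutant embryos kept an intact Wls gene. Embryos were taken at E8.0 (3 control and 3 mutant samples), E8.5 (2 control samples and 1 mutant sample) and E9.5 (6 and 6). A sample is the sum of all cells that share a MULTI-seq barcode, a lipid-anchored DNA tag put on cells before pooling, and the number of embryos behind a barcode is not given in the sources used here. The p-values below measure the spread between barcode samples, which may be technical in part.

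In the canonical pathway a Wnt ligand binds Frizzled and Lrp5 or Lrp6 at the cell surface, the complex that destroys β-catenin is switched off, and β-catenin joins TCF and LEF factors on DNA. Wls is the membrane protein that carries Wnt ligands to the surface of the cell that makes them. Feedback targets are widely used as a readout of this signalling, because they respond in many tissues. In the early embryo Wnt signals act in the primitive streak, the paraxial mesoderm, the neural crest and the heart fields, where they favour growth of progenitors and have to decline for cardiomyocytes to differentiate.

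The data comprised 14777 cells and 331587989 unique molecular identifiers (UMIs, 1 per captured RNA molecule), with a median of 21739 UMIs per cell, and the samples ranged from 134457 UMIs in 6 cells (Bar6, E9.5, control) to 61307782 UMIs. Values are given as counts per 1000000 UMIs (CPM). Because each RNA is counted by a tag at its 3′ end and a gene's share depends on all others, levels are compared between samples and cell groups, not between genes. The E8.0 samples shared 1 sequencing run, the E8.5 samples another, and the E9.5 samples from all 3 runs, and 23 cell barcodes occurred in more than 1 run. At E8.0 sex moved with genotype: the sum of Y-linked transcripts was 127 to 138 CPM in the mutants and 8.55, 9.98 and 70.7 CPM in the controls. At E9.5 it was 2.74 to 8.58 CPM in the controls Bar4, Bar9, Bar23 and Bar22, 89.2 CPM in Bar7 and 149 CPM in Bar6. It was 6.94 to 10.4 CPM in the E9.5 mutants Bar8, Bar10 and Bar20, and 131 to 151 CPM in Bar5, Bar21 and Bar19. The E9.5 samples of run 1 were the controls Bar22 and Bar23 and the mutants Bar19, Bar20 and Bar21. A single E7.5 control of 28 cells had 0 to 36.3 CPM of each gene. It was present in the fit over all stages, in filtering and scaling, but its own stage term left it no weight in the genotype difference. Wls checked the labels. It was 54.1 to 65.4 CPM in the E8.0 controls and 7.25 to 14.2 CPM in the mutants, 39.1 and 59.6 against 3.72 CPM at E8.5, and 35.9 to 46.1 against 8.54 to 12.1 CPM at E9.5, with no overlap at any of these stages. By lineage (the groups are defined below), pooled Wls was 2.68 to 9.24 CPM in mutants and 33.6 to 74.4 CPM in controls for cardiomyocyte, endothelial, paraxial, cranial, both second heart field and posterior lateral plate groups, and 0 against 64.1 CPM in proepicardium-positive cells (29 mutant and 49 control cells). It was 119.8 CPM in mutants against 104.4 CPM in controls for neural-positive cells and 121.9 against 138.3 CPM for endoderm-positive cells (66 and 97, and 50 and 51 cells), with exact Poisson intervals that overlapped in both. Whether the counted tags lie in the floxed part is not given in the sources used here.

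The promoters were searched for CTTTGA, the core sequence to which TCF and LEF factors bind, and for its longer form CTTTGAT, on both strands. Promoter windows of 300 bases (250 before and 50 after a start site, RefSeq, GRCm38.p6) were searched for Axin2, Lef1, Nkd1, Sp5, Tcf7 and Rnf43, 11 windows in all. Apcdd1 and Bambi were left out of this search, and no window was found for Notum and Znrf3. The core occurred in 2 of these 11 windows, one of Sp5 and one of Lef1, and it occurred in 16.0% of 32851 such windows of all genes. The 250 bases before the start are printed for these 2 windows, because Sp5 and Lef1 are followed through stages and cell types below. They lie on the plus strand at chr2:70474673-70474922 (Sp5) and chr3:131156044-131156293 (the downstream Lef1 start). Capitals mark the core, which reads TCAAAG where it lies on the minus strand.
Sp5: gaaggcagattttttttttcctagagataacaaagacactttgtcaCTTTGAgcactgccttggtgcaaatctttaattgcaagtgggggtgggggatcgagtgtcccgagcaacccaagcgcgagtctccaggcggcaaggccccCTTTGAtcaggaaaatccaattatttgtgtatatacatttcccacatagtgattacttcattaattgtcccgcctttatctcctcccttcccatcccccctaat
Lef1: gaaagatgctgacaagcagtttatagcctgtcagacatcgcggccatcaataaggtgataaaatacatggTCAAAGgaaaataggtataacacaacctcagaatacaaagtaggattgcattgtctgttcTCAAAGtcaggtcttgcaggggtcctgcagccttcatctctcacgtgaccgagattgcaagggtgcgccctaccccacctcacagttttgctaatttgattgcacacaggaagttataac

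In Sp5 the matches begin at positions −204 and −104 from the start site, both on the plus strand, and the second is part of CTTTGAT, which occurred in 3.73% of all windows. In Lef1 they lie at −180 and −120 on the minus strand. The 3 windows of the upstream Lef1 starts and the windows of Axin2, Nkd1, Tcf7 and Rnf43 hold neither form. Windows with 2 or more matches made up 1.73% of all. These are matches of letters, and nothing was measured on binding.

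To place the genes in cell types, a cell was called positive for a lineage when at least 3 of 6 marker genes had at least 2 UMIs (5 UMIs for the sarcomere genes of cardiomyocytes). These cutoffs were applied to counts of unequal depth, so shares of positive cells depend on depth as well as on cell type. Cells positive for more than 1 lineage (686) entered none, and 6306 cells (42.7%) were positive for no lineage. No doublet caller was run here, and how doublets were treated before deposit is not given in the sources used here. The most frequent groups were erythroid-positive (2129 cells), paraxial mesoderm-positive (1526), posterior second heart field-positive (1135) and cardiomyocyte-positive cells (1110). The second heart field is the progenitor pool that adds cells to the growing heart tube, at its arterial pole from the anterior part and at its venous pole from the posterior part. In bulk sums over all cells, fewer cells of a type and less RNA per cell cannot be told apart, so the level in each lineage is given first. Pooled CPM is the sum of a gene's UMIs in all positive cells of a lineage over their total. Where no stage is named it joins stages and genotypes, which the lineages hold in different shares. Means are over samples with at least 20 positive cells.

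**Figure D1:**
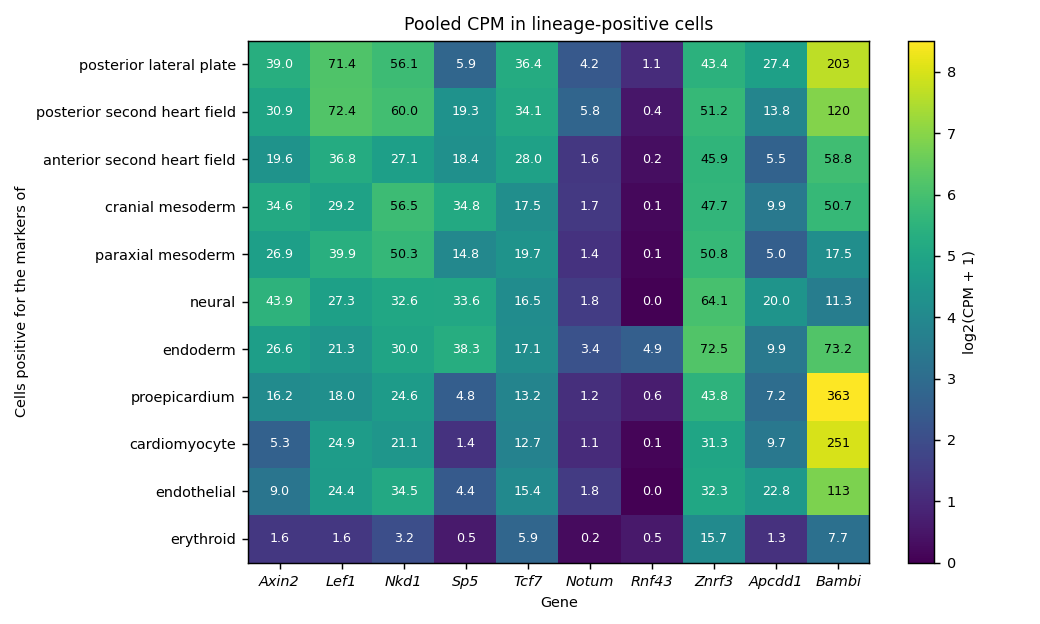
Pooled CPM of the 10 genes (columns) in cells positive for the markers of 11 lineages (rows), printed in each field and coloured by log2(CPM + 1). Axin2, Nkd1 and Tcf7 are lowest in erythroid-positive and cardiomyocyte-positive cells, Lef1 is lowest in erythroid-positive cells, and all 4 are high in posterior lateral plate, while Bambi is highest in proepicardium-positive and cardiomyocyte-positive cells.

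Both intracellular inhibitors were low in cardiomyocyte-positive and erythroid-positive cells. Axin2 encodes the inducible scaffold of the complex that destroys β-catenin. Its pooled level was 43.9 CPM in neural-positive cells (36.1 ± 11.5 over 2 samples), 39.0 in posterior lateral plate (37.9 ± 10.8, n = 7), 34.6 in cranial mesoderm, 30.9 in posterior second heart field, 26.9 in paraxial mesoderm, 26.6 in endoderm, 19.6 in anterior second heart field, 16.2 in proepicardium, 8.96 in endothelial, 5.31 in cardiomyocyte and 1.61 in erythroid-positive cells. Over samples it was 31.5 ± 6.32 CPM in posterior second heart field-positive cells (SD, n = 15) and 5.05 ± 3.07 CPM in cardiomyocyte-positive cells (n = 18), and it was lower in cardiomyocyte-positive cells in all 15 samples that held both groups. Neighbours in this order with at least 2 samples each overlapped in their sample ranges, so only lineages further apart were separate. Nkd1 encodes an inhibitor that binds Dishevelled, the adaptor between receptor and destruction complex. It was highest in posterior second heart field (58.3 ± 15.0 CPM, n = 15), cranial mesoderm (55.3 ± 8.53, n = 5), posterior lateral plate (52.9 ± 29.4, n = 7) and paraxial mesoderm-positive cells (44.9 ± 10.7, n = 14), whose ranges overlapped. The cardiomyocyte-positive cells had 19.5 ± 9.82 CPM of Nkd1 (n = 18), and the erythroid-positive cells 3.05 ± 1.94 CPM (n = 16), with no overlap between these 2 groups.

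The transcription factors of the set separated the lineages in different ways. Lef1, a DNA-binding partner of β-catenin, was highest in posterior second heart field-positive cells (68.6 ± 20.4 CPM, n = 15) and posterior lateral plate-positive cells (69.7 ± 25.2, n = 7), which did not differ beyond their spread. Paraxial mesoderm-positive cells had 43.0 ± 13.4 CPM of Lef1 (n = 14) and anterior second heart field-positive cells 39.1 ± 11.2 CPM (n = 10). In the 10 samples that held both heart field groups, Lef1 was higher in the posterior group each time. Cardiomyocyte-positive and endothelial-positive cells were alike, with 23.0 ± 13.9 (n = 18) and 24.2 ± 8.76 CPM (n = 12), and erythroid-positive cells had 1.65 ± 1.38 CPM (n = 16). Tcf7, the related factor TCF1, followed a similar order, from 35.9 ± 10.4 CPM in posterior lateral plate (n = 7) and 33.5 ± 5.47 CPM in posterior second heart field-positive cells (n = 15) to 12.8 ± 4.24 CPM in cardiomyocyte-positive (n = 18) and 6.39 ± 4.07 CPM in erythroid-positive cells (n = 16). Sp5 encodes a zinc-finger factor of the Sp family that acts downstream of Wnt. Its order over all stages was another one: the pooled level was 38.3 CPM in endoderm, 34.8 in cranial mesoderm, 33.6 in neural, 19.3 in posterior second heart field, 18.4 in anterior second heart field and 14.8 in paraxial mesoderm-positive cells, but 5.93 CPM in posterior lateral plate and 1.39 CPM in cardiomyocyte-positive cells. This order did not hold within E9.5. There posterior second heart field-positive cells had 5.63 CPM in controls and 7.27 CPM in mutants. Paraxial mesoderm-positive cells had 13.3 and 12.2 CPM, and posterior lateral plate-positive cells 10.6 and 5.48 CPM. Sp5 was lower in cardiomyocyte-positive than in posterior second heart field-positive cells in all 15 shared samples. Its spread was wide in posterior second heart field-positive cells (18.3 ± 14.9 CPM, n = 15), where it differed between stages, as described below.

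The receptor ligases and the extracellular inhibitors were more scattered. Rnf43 and Znrf3 encode membrane ubiquitin ligases that remove Frizzled receptors from the surface. Rnf43 gave 130 UMIs in the whole matrix. Its pooled level was 4.93 CPM in endoderm-positive cells from 13 UMIs (exact Poisson 95% interval 2.63 to 8.44, counting error only), and at most 1.13 CPM elsewhere. Znrf3 had a pooled level of 72.5 CPM in endoderm-positive and 64.1 CPM in neural-positive cells (70.0 ± 6.65 over 2 samples). It was 49.7 ± 7.33 CPM in posterior second heart field (n = 15), 50.3 ± 6.90 in paraxial mesoderm (n = 14), 47.3 ± 6.83 in anterior second heart field (n = 10), 30.3 ± 9.20 in cardiomyocyte (n = 18) and 17.3 ± 8.59 in erythroid-positive cells (n = 16). Notum, a secreted enzyme that strips the lipid from Wnt ligands, was low, with 5.75 ± 3.94 CPM in posterior second heart field-positive cells (n = 15) and 3.99 ± 2.20 CPM in posterior lateral plate-positive cells (n = 7). Of its 1029 UMIs 624 came from the cells positive for no lineage, which had 6.20 ± 3.93 CPM (n = 19; pooled 5.45 CPM, beside 5.83 CPM pooled in posterior second heart field). It was higher in posterior than in anterior second heart field-positive cells in all 10 shared samples, where the anterior cells had a mean of 1.53 CPM. Apcdd1, a membrane glycoprotein that inhibits Wnt signalling at the surface, had its highest pooled levels in posterior lateral plate (27.4 CPM; 25.8 ± 10.4 over samples, n = 7), endothelial (22.8 CPM; 21.7 ± 11.8, n = 12) and neural-positive cells (20.0 CPM). The endothelial level differed by stage, with 31.5 CPM in controls and 34.7 CPM in mutants pooled at E8.0, and 11.8 and 20.9 CPM at E9.5. Posterior second heart field-positive cells had 19.1 and 16.1 CPM at E9.5, above the endothelial level in controls only. The neural value varied, with 26.4 and 32.9 CPM in 2 E9.5 controls and 7.89 CPM pooled over the E9.5 mutants, from 7 UMIs. Apcdd1 was higher in endothelial-positive than in paraxial mesoderm-positive cells in all 11 shared samples, where the paraxial cells had a mean of 4.57 CPM.

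Bambi stood apart from the other members in its cell types. It encodes a receptor-like membrane protein without a kinase that dampens BMP and TGF-β signalling and is itself a Wnt target. It reached 363 CPM in the 78 proepicardium-positive cells, the precursors of the outer layer of the heart, of which only 1 sample had at least 20 (507 CPM). It was 246 ± 55.6 CPM in cardiomyocyte-positive cells (n = 18), 207 ± 54.6 in posterior lateral plate (n = 7), 120 ± 41.7 in posterior second heart field (n = 15), 115 ± 17.8 in endothelial (n = 12), 61.0 ± 18.1 in anterior second heart field (n = 10), 19.0 ± 4.90 in paraxial mesoderm (n = 14) and 8.96 ± 4.59 in erythroid-positive cells (n = 16). Cardiomyocyte-positive cells had more Bambi than paraxial mesoderm-positive cells in 14 of 14 shared samples and more than posterior second heart field-positive cells in 15 of 15. These are the cells with the second lowest Axin2.

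The share of cells with a UMI was compared at equal depth. With every cell thinned to 5000 UMIs, which left out 447 shallower cells, Bambi was found in 30.9 ± 4.74% of cells (SD, n = 20 samples; 56.1% unthinned), Znrf3 in 17.4 ± 2.54%, Nkd1 in 16.5 ± 2.55%, Lef1 in 14.4 ± 4.08%, Axin2 in 10.2 ± 2.81% (28.1% unthinned) and Rnf43 in 0.14 ± 0.18%. Erythroid-positive cells, set beside these as a measure of free RNA, had 4.75% for Bambi, 8.30% for Znrf3, 1.40% for Nkd1, 0.79% for Lef1, 0.65% for Axin2 and 0.16% for Rnf43. Whether these UMIs come from free RNA or from the erythroid-positive cells themselves was not tested. The median depths were 21754 UMIs for all cells and 28790 UMIs for erythroid-positive cells. The thinned share of Rnf43 was thus not above that of erythroid-positive cells. A thinned cell held UMIs of 1.11 of the 10 genes on average, 37.3% of cells held none, and 12.3% held 3 or more. In posterior lateral plate-positive cells the mean was 1.74, in posterior second heart field-positive cells 1.39, in cardiomyocyte-positive cells 1.10 and in erythroid-positive cells 0.17. It was 1.41 in cells positive for no lineage and 1.31 in proepicardium-positive cells. Endothelial-positive cells had 0.97, anterior second heart field-positive cells 0.96 and paraxial mesoderm-positive cells 0.93, all below the cardiomyocyte-positive cells. Cranial, neural and endoderm-positive cells lay between the endothelial and cardiomyocyte values. Which genes made up the mean in each lineage was not tested. By sample the mean number ran from 0.719 to 1.21 in the E9.5 controls and from 0.985 to 1.18 in the E9.5 mutants, so the genotypes overlapped.

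The first comparison asked whether loss of Wls in the mesoderm lowered these targets. Over all stages none of the 10 genes passed the test (edgeR quasi-likelihood, Benjamini-Hochberg over all genes, threshold 0.05), while 10.2% of the 20831 genes tested did. At an unadjusted p below 0.05 there was 1 member, Bambi (log2 fold change 0.28, 0.03 to 0.53, adjusted p = 0.150), and DESeq2 called 1, also Bambi. Of all genes, 4864 of 20831 had such a p, and DESeq2 called 3274 of 20799. Apcdd1 was at 0.27 (−0.00059 to 0.55, adjusted p = 0.215). The members' median log2 fold change, mutant over control, was −0.04, beside 0.02 for all genes, whereas Wls was at −2.38. The 95% intervals bound the size that could have been missed: −0.31 to 0.14 for Axin2, −0.33 to 0.15 for Lef1, −0.25 to 0.13 for Nkd1, −0.20 to 0.15 for Tcf7, −0.26 to 0.04 for Znrf3 and −0.86 to 0.21 for Sp5. A change as large as that of Wls lies outside each of these intervals. The intervals of Notum (−0.40 to 0.42) and of Rnf43 (−0.07 to 1.00) were wider. With the Y-linked share as covariate 471 of 20831 genes passed, beside 2132 without it, and the part of sex was not tested within a sex.

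**Figure D2:**
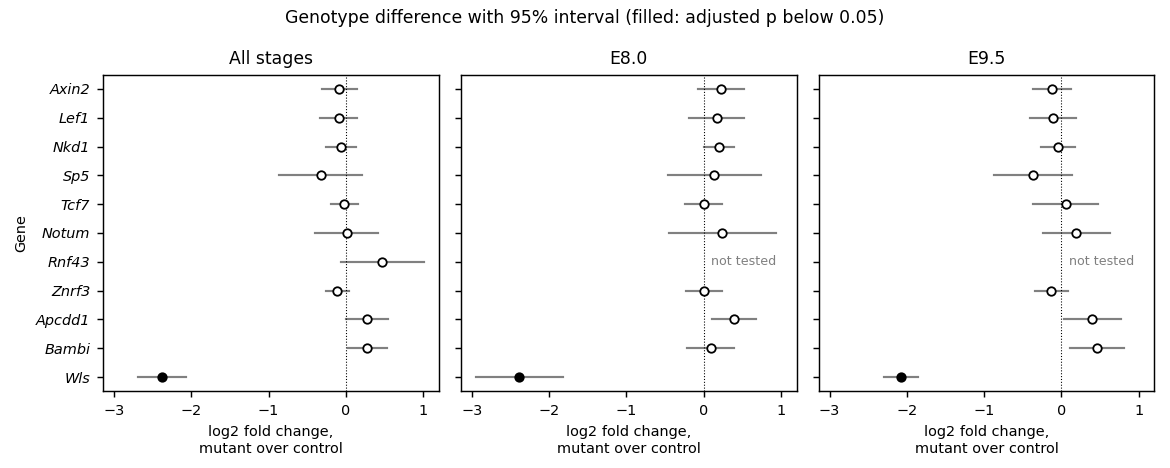
Fitted log2 fold change, mutant over control, of the 10 genes and Wls (rows) over all stages, at E8.0 and at E9.5, with 95% intervals; filled points have an adjusted p below 0.05. Rnf43 has a point over all stages only. The genes of the set have open points between −0.37 (Sp5 at E9.5) and 0.47 (Rnf43 over all stages), while Wls lies between −2.38 and −2.07.

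At E8.0 no member passed the test. How many of all genes separate the genotypes fully was not counted, so such separation of single members is description only. Axin2 was 23.4, 19.8 and 24.5 CPM in controls and 30.9, 23.2 and 29.8 CPM in mutants, which overlapped. Nkd1 was 34.9, 40.8 and 39.9 CPM in controls and 45.8, 44.4 and 50.0 CPM in mutants, and Apcdd1 12.3, 10.8 and 12.9 against 16.8, 14.5 and 18.6 CPM. For Nkd1 and Apcdd1 each mutant lay above each control. The edgeR test called 0 of the 9 members tested (Rnf43 was too low), and 0.0244% of all genes, that is 4 of 16416. Unadjusted p was below 0.05 for 2 members: Apcdd1 had a log2 fold change of 0.39 (95% interval 0.10 to 0.68, adjusted p = 0.496) and Nkd1 of 0.20 (0.0045 to 0.39, adjusted p = 0.505). Of all 16416 genes 1615 had such a p. DESeq2 called 0 members and 45 of all 16407 genes. Sex moved with genotype at this stage, as given above, and its part was not tested within a sex. Erythroid-positive cells were 7.92% to 29.0% of the controls and 2.68% to 10.8% of the mutants. Without the erythroid-positive cells the value was 0.02 for Nkd1, 0.05 for Axin2 and 0.21 for Apcdd1. The other genes overlapped: Lef1 was 38.8 to 54.4 CPM in controls and 43.6 to 65.7 CPM in mutants, Sp5 13.3 to 27.1 and 16.3 to 26.8 CPM, and Bambi 70.7 to 101 and 92.1 to 109 CPM.

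At E8.5 there was 1 mutant sample and no test. Axin2 was 15.8 CPM in the mutant (exact Poisson 95% interval 13.5 to 18.4, counting error only) and 20.1 CPM (19.0 to 21.3) and 39.0 CPM (27.0 to 54.4) in the controls. Lef1 was 25.3 against 33.6 and 43.5 CPM, Nkd1 40.2 against 55.3 and 79.0 CPM, Notum 1.24 against 2.74 and 5.73 CPM, Apcdd1 5.44 against 7.57 and 8.02 CPM, and Bambi 126 against 113 and 108 CPM. For Sp5 (9.64 against 10.6 CPM), Tcf7 (18.9 against 20.0 CPM), Znrf3 (34.9 against 35.5 CPM) and Rnf43 (0.29 against 0.28 CPM) the distance of the mutant to the nearest control was within counting error. For how many of all genes the mutant sample was lowest or highest was not counted, so its place for these members is description only. The control of 34 cells had the higher control value for Axin2, Lef1, Nkd1, Sp5, Tcf7, Notum and Apcdd1. It had the lower one for Bambi, Znrf3 and Rnf43. Cardiomyocyte-positive cells made up 15.4% of the mutant and 2.94% and 4.82% of the controls; their part in these values was not tested.

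**Figure D3:**
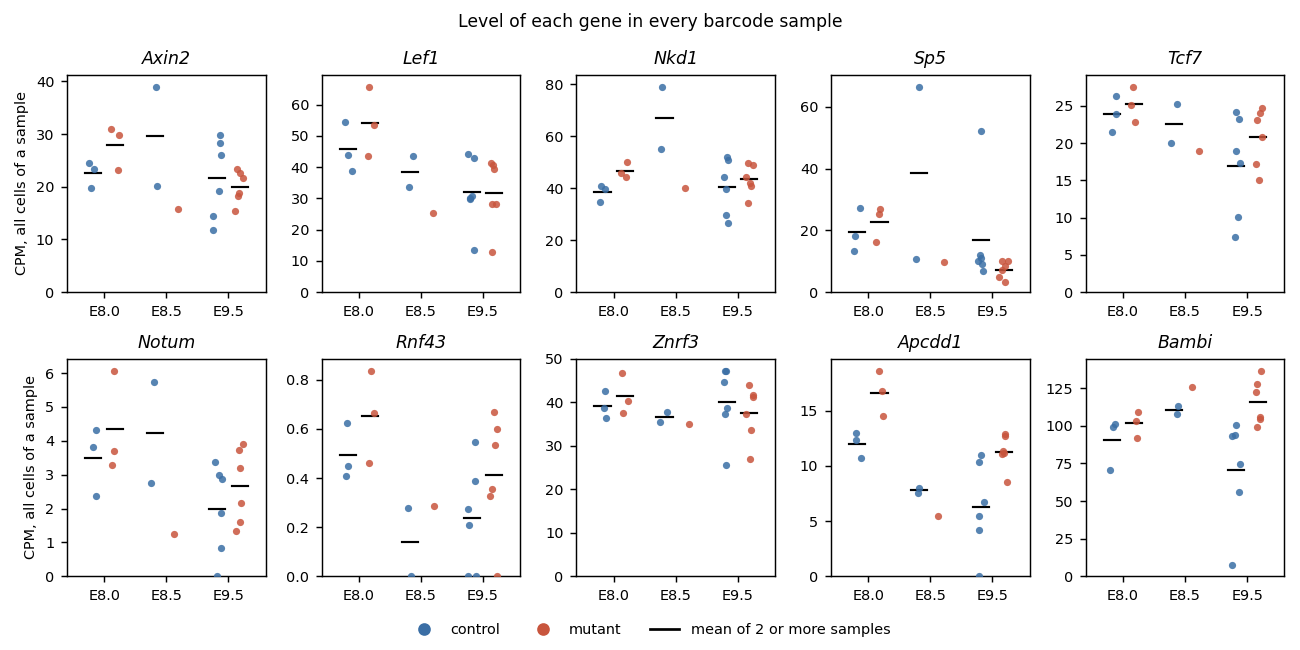
CPM of each of the 10 genes (panels) in every barcode sample over all its cells, by stage, with controls blue and mutants red; lines are means of 2 or more samples. Genotypes overlap in most panels; the Sp5 control at 52.1 CPM (E9.5) is the sample of 6 cells.

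At E9.5, 6 samples of each genotype were compared. None of the 9 genes tested passed (Rnf43 was too low to be tested), and 10.3% of the 17227 genes did. With the Y-linked share as covariate 1181 of 18071 genes passed, and the part of sex was not tested within a sex. Axin2 had a lowest, median and highest value of 11.7, 22.6 and 29.7 CPM in controls and 15.5, 20.2 and 23.3 CPM in mutants. For Lef1 these were 13.4, 30.6 and 44.3 against 12.9, 33.8 and 41.3 CPM, and for Nkd1 26.8, 42.0 and 52.1 against 34.5, 43.2 and 49.6 CPM. The mutants lay inside the range of the controls for Axin2 and Nkd1. Tcf7 was 7.44, 18.1 and 24.2 against 15.1, 21.9 and 24.7 CPM, Znrf3 25.5, 41.6 and 47.2 against 26.9, 39.3 and 44.0 CPM, and Notum 0, 2.38 and 3.36 against 1.34, 2.68 and 3.90 CPM. These overlapped, with log2 fold changes of 0.05, −0.13 and 0.19. Sp5 was 6.95, 10.5 and 52.1 CPM in controls and 3.23, 7.73 and 10.1 CPM in mutants, with a log2 fold change of −0.37 (−0.88 to 0.13, adjusted p = 0.346). The 52.1 CPM rested on 7 UMIs of the 6-cell sample, and the other controls lay between 6.95 and 12.2 CPM.

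Bambi came closest to a call at E9.5. It was 7.44, 83.9 and 100 CPM in controls (lowest, median and highest) and 99.2, 114 and 136 CPM in mutants, so that the groups overlapped only at the highest control. Its log2 fold change was 0.46 (0.11 to 0.81, adjusted p = 0.0852). The lowest control was the sample of 6 cells (Bar6), and without it the value was 0.42 with an adjusted p of 0.0134. DESeq2 called Bambi as well (adjusted p = 0.0043), and 2701 of all 17206 genes. Within runs 1, 2 and 3 the log2 fold change was 0.39, 0.78 and 0.58, with adjusted p-values of 0.0684 in run 1 and 0.146 in run 3. Run 2 had 1 mutant sample (57 cells) against Bar4 and the 6-cell Bar6, so its value stands without a p. The makeup of the samples also differed. Of 6 proepicardium markers 3 rose (Upk1b 1.77, Wt1 1.28 and Upk3b 1.27 on the log2 scale), and their summed level was 7.44 to 59.9 CPM in controls and 59.8 to 120 CPM in mutants. The 7.44 CPM is 1 UMI of the 6-cell Bar6. Proepicardium-positive cells were 0 to 0.76% of the controls and 0.60% to 3.51% of the mutants, where the 3.51% is Bar5 with 57 cells and the next mutant had 1.79%. Of the cardiomyocyte markers 0 of 6 passed, with a summed level of 44.6 to 5185 CPM in controls and 712 to 7826 CPM in mutants. Posterior lateral plate, another group with much Bambi, lay in the opposite direction: of its 6 markers 1 fell (Hoxc10 by 1.88) and 0 rose, their summed level had a median of 63.8 CPM in controls and 33.3 CPM in mutants, and the positive cells were 0 to 16.7% (median 3.34%) of the controls and 0 to 1.74% (median 0.25%) of the mutants. The 16.7% is 1 cell of the 6-cell Bar6, and the next control had 3.78%. Groups with little Bambi differed too. Erythroid-positive cells had a median share of 22.4% in controls and 13.6% in mutants, and paraxial mesoderm-positive cells 10.7% and 4.84%. Neural-positive cells lay the other way, with 1.34% and 1.69%. The ranges of the genotypes overlapped in each of these. The part of all these groups in the Bambi value was not tested. Within cardiomyocyte-positive cells Bambi was 241 ± 36.0 CPM in E9.5 controls and 249 ± 56.5 CPM in mutants (SD, n = 5 each), and over all stages its log2 fold change there was −0.02 (−0.23 to 0.19). In anterior second heart field-positive cells Bambi was 33.7, 43.6 and 46.3 CPM in E9.5 controls and 79.3 and 89.9 CPM in mutants, with no overlap. How many of all genes separate these few samples was not counted, so this is description only. In posterior second heart field-positive cells Bambi was 52.6, 116, 129 and 139 CPM in E9.5 controls and 112, 184 and 230 CPM in mutants, which overlapped. Pooled over E8.0 cells, Bambi was 77.0 CPM in controls and 55.8 CPM in mutants for the anterior group. For the posterior group it was 103 and 94.4 CPM. Pooled over E9.5 cells it was 269 CPM in controls and 306 CPM in mutants for proepicardium, and 188 and 217 CPM for posterior lateral plate, with Poisson intervals that overlapped in both. Over all stages neither heart field lineage passed (0.33, −0.22 to 0.87, and 0.12, −0.17 to 0.42). Apcdd1 was 0, 6.07 and 11.0 CPM in E9.5 controls and 8.54, 11.3 and 12.9 CPM in mutants, with a log2 fold change of 0.40 (0.03 to 0.77, adjusted p = 0.160). The 0 is again the sample of 6 cells, where 3 UMIs would be 22.3 CPM. In run 1 alone the value of Apcdd1 was 0.12. Bambi and Apcdd1 had an unadjusted p below 0.05 at E9.5, as had 4531 of all 17227 genes.

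An interaction term of genotype and stage compared the genotype difference at E9.5 with that at E8.0. None of the 9 genes tested passed, where 0.464% of 17872 genes did. The largest estimates were −0.51 for Sp5 (−1.31 to 0.29), 0.37 for Bambi (−0.16 to 0.90) and −0.35 for Axin2 (−0.73 to 0.03), with adjusted p-values of 0.658, 0.612 and 0.471. No member had an unadjusted p below 0.05, and DESeq2 called 0. Of all 17872 genes 2060 had such a p. The intervals take in 0 for all 9.

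The genotypes were then compared within cells positive for a lineage, in the 6 lineages with at least 3 samples of each genotype. No member passed in any of them, nor in the cells positive for no lineage. In cardiomyocyte-positive cells (9 control and 9 mutant samples, 7 members tested) 2.46% of 12040 genes passed. These 296 genes became 56 without Bar23, 78 without Bar22 and 395 without Bar26. Here Axin2 was 12.2, 5.99 and 4.92 CPM in the E8.0 controls and 7.38, 4.71 and 3.17 CPM in the mutants, and 8.55 against 2.01 CPM at E8.5. At E9.5 it was 4.38 to 7.90 CPM in 5 controls and 0 to 5.91 CPM in 5 mutants. The genotypes overlapped at E8.0 and at E9.5. These E9.5 mutants had 0 to 3 UMIs of Axin2 each, and a 0 in the 34 cells of Bar10 allows up to 10.9 CPM (exact Poisson 95% interval), above every E9.5 control. The log2 fold change of Axin2 was −0.93 (−1.65 to −0.21, adjusted p = 0.165), from 85 UMIs in the controls and 37 in the mutants. Lef1 was 53.1, 46.6 and 31.5 against 39.3, 20.9 and 29.1 CPM at E8.0, 14.0 against 14.8 CPM at E8.5, and 14.2 to 31.7 against 2.97 to 21.2 CPM at E9.5, where the lowest 3 mutants had 1 or 2 UMIs each. Its log2 fold change was −0.58 (−1.03 to −0.13, adjusted p = 0.167). Both genes had an unadjusted p below 0.05, as had 1973 of all 12040 genes. The other estimates were −0.31 for Nkd1, −0.26 for Znrf3, 0.21 for Tcf7 and 0.39 for Apcdd1. Of the other genes of the pathway 0 of 18 transduction genes, 0 of 4 R-spondin and Lgr genes and 2 of 9 other targets tested passed in these cells: Ccnd1, the cell-cycle gene of cyclin D1, fell by 0.50 and Id2, an inhibitor of helix-loop-helix factors, fell by 0.41 on the log2 scale. Of the 6 cardiomyocyte markers 2 rose (Ttn 0.48, Myl7 0.38), of the 6 anterior second heart field markers 1 fell (Isl1 by 0.56), of the 6 posterior ones 1 fell (Osr1 by 2.11), and of the 6 proepicardium markers 0 passed. The cells were chosen by the same cardiomyocyte markers, and cells positive for a second lineage were left out. These marker values therefore depend on the choice of cells, and nothing is concluded from them. The part of such differences in the values of Axin2 and Lef1 was not tested.

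**Figure D4:**
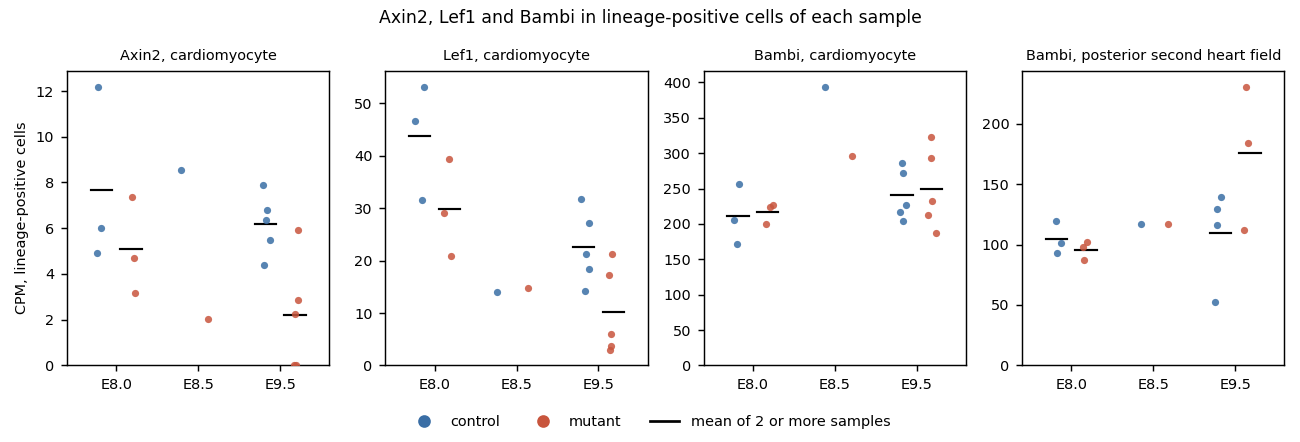
CPM in lineage-positive cells of each sample with at least 20 such cells, by stage, for Axin2, Lef1 and Bambi in cardiomyocyte-positive cells and for Bambi in posterior second heart field-positive cells; controls blue, mutants red, lines are means of 2 or more samples. The genotypes overlap for Axin2 and Lef1, whose lowest E9.5 values rest on 0 to 2 UMIs a sample, and Bambi overlaps in both groups of cells.

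In anterior second heart field-positive cells (5 control and 4 mutant samples, 7 members tested) 0.112% of 8947 genes passed. Axin2 was 42.0 and 32.6 CPM in E8.0 controls and 15.0 and 24.7 CPM in mutants, with no overlap, but 8.06 to 20.4 CPM against 2.72 and 19.8 CPM at E9.5, which overlapped. Its log2 fold change was −0.77 (−1.54 to −0.0041, adjusted p = 0.362), with an unadjusted p below 0.05, as had 1230 of all 8947 genes. How many of all genes separate the few E8.0 samples of this group was not counted, so the separation of Axin2 there is description only. The estimates of the other members were Lef1 0.28, Nkd1 0.07, Sp5 −0.30, Tcf7 0.37, Znrf3 −0.03 and Bambi 0.33. In posterior second heart field-positive cells (8 and 7 samples, 9 members tested) 0.116% of 12971 genes passed, and Axin2 was at 0.10 (−0.18 to 0.38). In these cells the intervals were narrow for Tcf7 (−0.16 to 0.25) and Lef1 (−0.35 to 0.17), and 2 members had an unadjusted p below 0.05: Notum at 0.72 (0.0097 to 1.42, adjusted p = 0.416) and Znrf3 at −0.22 (−0.41 to −0.03, adjusted p = 0.350). Of all 12971 genes 1522 had such a p. The others there were Nkd1 0.0011, Sp5 0.22, Apcdd1 −0.32 and Bambi 0.12. The Axin2 intervals of anterior and posterior second heart field overlapped, and the difference between lineages was not tested.

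In paraxial mesoderm-positive cells, which form the somites, 4.66% of 10966 genes passed (7 samples of each genotype, 8 members tested), and the 511 genes became 44 without Bar23, 49 without Bar22 and 763 without Bar26. Nkd1 was at −0.26 (−0.51 to −0.01, adjusted p = 0.209), Lef1 at −0.26 (−0.50 to −0.01, adjusted p = 0.212), Axin2 at 0.03 (−0.30 to 0.35) and Bambi at 0.28 (−0.03 to 0.60, adjusted p = 0.296). Nkd1 and Lef1 had an unadjusted p below 0.05, as had 2317 of all 10966 genes. Sp5 was at −0.03, Tcf7 at −0.10, Znrf3 at −0.07 and Apcdd1 at 0.17. Of 9 other targets tested, Tbx3, a T-box factor, rose by 1.57 in these cells and Ccnd1 fell by 0.41, while 0 of 18 transduction genes and 0 of 3 R-spondin and Lgr genes passed. In endothelial-positive cells 0.0795% of 10066 genes passed (7 control and 5 mutant samples), and the 7 members tested had estimates between −0.47 (Tcf7) and 0.36 (Apcdd1). In erythroid-positive cells 0.00885% of 11298 genes passed, which is 1 gene (9 control and 7 mutant samples). The lowest estimate there was that of Lef1, −1.12 (−2.0 to −0.23, adjusted p = 0.604), at levels of 0 to 4.27 CPM. Its unadjusted p was below 0.05, as for 870 of all 11298 genes. Wls itself was at −1.86 in these cells and was not called (adjusted p = 0.169). In the cells positive for no lineage 11.6% of 13323 genes passed (9 control and 10 mutant samples). The 9 members tested lay between −0.12 (Notum) and 0.23 (Apcdd1), with Axin2 at −0.03 (−0.22 to 0.16) and Wls at −2.51. Of 15 other targets tested there, Nkd2, a relative of Nkd1, fell by 0.55 and Ccnd1 by 0.35, and 0 of 18 transduction genes and 0 of 6 R-spondin and Lgr genes passed.

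The course from E8.0 to E9.5 was followed in each genotype. In mutants 2 of 9 genes changed, where 15.9% of 17082 genes did: Sp5 fell and Bambi rose. Sp5 was 26.8, 16.3 and 25.2 CPM in the 3 mutants at E8.0 and 3.23, 7.73 and 10.1 CPM (lowest, median, highest of 6) at E9.5, with no overlap. Its log2 fold change was −1.39 (−1.86 to −0.92, adjusted p = 0.0028), and it passed in run 1 alone as well (−1.32, adjusted p = 0.0060). Bambi was 92.1, 104 and 109 CPM at E8.0 and 99.2, 114 and 136 CPM at E9.5, which overlapped, with a log2 fold change of 0.34 (0.11 to 0.56, adjusted p = 0.0447). The Bambi call was lost when any one of 6 of the 9 mutant samples was left out (Bar25, Bar27, Bar28, Bar19, Bar20 or Bar8), with adjusted p-values up to 0.209. The Y-linked sum of the mutants also differed between stages, with 127 to 138 CPM at E8.0. At E9.5 it was 131 to 151 CPM in Bar5, Bar21 and Bar19, and 6.94 to 10.4 CPM in Bar8, Bar10 and Bar20. The part of sex in these changes was not tested. In controls no gene of 9 passed, where 3.53% of 16889 did. Sp5 was 13.3, 18.1 and 27.1 CPM at E8.0 and 6.95, 10.5 and 52.1 CPM at E9.5, with a log2 fold change of −0.75 (−1.42 to −0.08, adjusted p = 0.220), and without the 6-cell sample it was −0.84 (adjusted p = 0.0730). Sp5 and Apcdd1 had an unadjusted p below 0.05 in controls, and DESeq2 called 0. Of all 16889 genes 3040 had such a p. That Sp5 passed in mutants and not in controls does not show a difference between them, since the interaction did not pass (−0.51, −1.31 to 0.29).

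No other member passed over time. In mutants Lef1 was 43.6 to 65.7 CPM at E8.0 and 12.9 to 41.3 CPM at E9.5, with no overlap and a log2 fold change of −0.54 (−0.94 to −0.14, adjusted p = 0.0669). In controls Lef1 was 38.8 to 54.4 and 13.4 to 44.3 CPM, with −0.35 (−0.80 to 0.09). Apcdd1 was at −0.45 (adjusted p = 0.0627) in mutants and −0.53 (adjusted p = 0.246) in controls. Axin2 was at −0.31 (−0.61 to −0.01, adjusted p = 0.151) in mutants and −0.01 (−0.40 to 0.37) in controls. Lef1, Apcdd1 and Axin2 had an unadjusted p below 0.05 in mutants, as had 5305 of all 17082 genes. Nkd1 was at 0.03 in mutants and 0.28 in controls, and Znrf3 at 0.01 and 0.15. DESeq2 called 4 members in mutants, with Lef1 and Apcdd1 besides Sp5 and Bambi, and 2913 of all 17060 genes.

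The composition of the samples differed between these stages. In mutants 5 of 6 proepicardium markers rose (Upk3b by 3.63, Wt1 by 3.34), 3 of 6 erythroid markers rose, 5 of 6 posterior lateral plate markers fell (Tbx4 by 3.70) and 2 of 6 posterior second heart field markers fell (Aldh1a2 by 1.36, Foxf1 by 0.76). Posterior second heart field-positive cells were 9.95% to 17.5% of mutant cells at E8.0 and 1.07% to 12.7% at E9.5. Depth differed as well: the E8.0 mutants had medians of 25075 to 27469 UMIs per cell. The run 3 mutants Bar10 and Bar8 had 9759.5 and 10871.5, with 1.07% and 1.19% of such cells, and the part of depth was not tested. Because of these differences Sp5 was read within lineages, as values with no test. In posterior second heart field-positive cells it was 28.2, 31.3 and 43.7 CPM in E8.0 controls and 41.1, 25.1 and 38.8 CPM in E8.0 mutants. At E8.5 it was 3.17 CPM in the control and 8.91 CPM in the mutant, and at E9.5 4.13, 4.17, 15.0 and 11.3 CPM in controls and 3.74, 9.56 and 6.38 CPM in mutants. All 6 E8.0 samples lay above all 9 later ones, in both genotypes. How many of all genes separate the stages in these cells was not counted, so this is description only. In anterior second heart field-positive cells Sp5 was 24.5 and 63.8 CPM in E8.0 controls and 13.5 and 51.0 CPM in mutants, and 2.02 to 12.4 CPM in the 5 samples of E9.5. In cranial mesoderm-positive cells it was 74.8 CPM in the control and 42.4 CPM in the mutant at E8.0, and 14.6 and 21.9 CPM in 2 controls at E9.5. Paraxial mesoderm-positive cells showed no such order, with 6.20 to 19.4 CPM at E8.0 and 6.93 to 56.1 CPM at E9.5. Posterior lateral plate-positive cells had no high values at E8.0. They had 0 CPM of Sp5 in 1 control and 0 and 1.05 CPM in 2 mutants at E8.0, 11.7 CPM in the control at E8.5, and 0, 12.4 and 13.3 CPM in 3 controls at E9.5. Run 1 held every sample of E8.0, and the 5 E9.5 samples of run 1 had 3.74 to 9.56 CPM in posterior second heart field-positive cells.

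**Figure D5:**
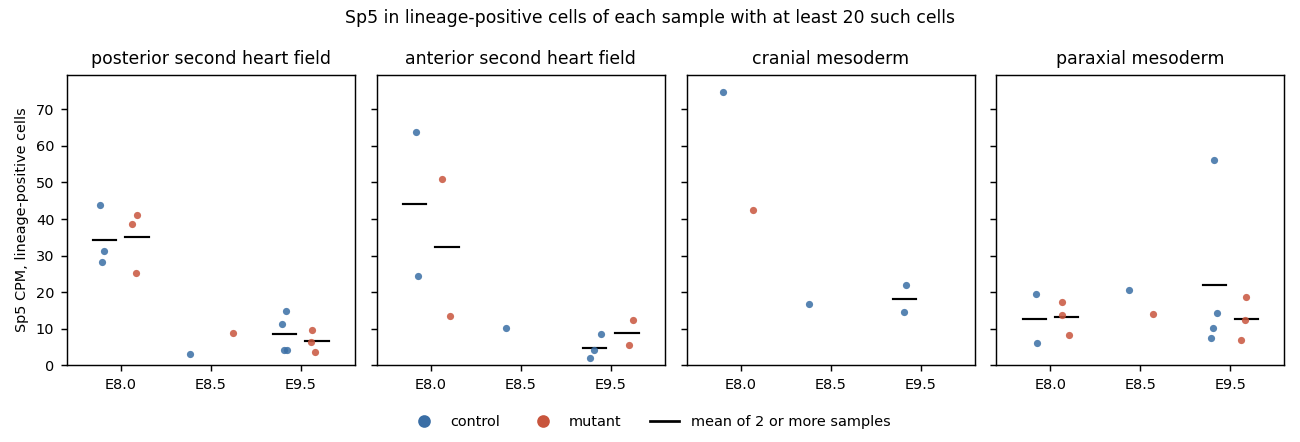
Sp5 CPM in lineage-positive cells of each sample with at least 20 such cells, by stage, in 4 mesodermal groups; controls blue, mutants red, lines are means of 2 or more samples. In the posterior second heart field group all E8.0 samples (25.1 CPM or more) lie above all later ones (15.0 CPM or less), while the paraxial groups overlap. Such separation was not counted over all genes.

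The other genes of the pathway were taken from 3 lists. The transduction list holds receptors, destruction complex and nuclear partners (18 genes), the second list the R-spondins, secreted proteins that keep Frizzled on the surface by inhibiting Rnf43 and Znrf3, with their Lgr receptors (7 genes), and the third other reported targets (16 genes). Over all stages 1 of 18 transduction genes fell (Axin1, the constitutive scaffold, by 0.23), 0 of 7 R-spondin and Lgr genes passed, and 1 of 15 other targets fell (Ccnd1 by 0.33), where 10.2% of all genes passed. The medians of the 3 lists were −0.01, −0.00069 and −0.02, beside 0.02 for all genes. At E9.5 the numbers were 0 of 18, 0 of 7 and 3 of 14: Nkd2 fell by 0.89, Ccnd1 fell by 0.45 and Tbx3 rose by 0.62, where 10.3% of all genes passed. At E8.0 and for the interaction none passed. From E8.0 to E9.5 in mutants 7 of 15 other targets fell and 1 rose, where 15.9% of all genes passed. Those with the largest change were Cdx4 (−4.52), Cdx2 (−3.28), T (−2.83) and Tbx6 (−2.05), transcription factors known from the primitive streak and tail. In controls 2 of 15 fell, Cdx1 (−1.53) and Fgf8 (−1.20), and 1 rose, Nkd2 (1.39), where 3.53% of all genes passed. Of the 7 R-spondin and Lgr genes 1 rose in controls, Rspo2 (2.91), and in mutants 2 rose, Rspo2 (3.71) and Rspo4 (3.36), and 1 fell, Rspo3 (by 0.91). Of the 18 transduction genes 1 rose in each genotype, Pygo1 (1.26 in controls and 1.08 in mutants), a nuclear partner of the β-catenin complex. Fgf8 is also among the 6 anterior second heart field markers.

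Across 52 points, each a lineage at a stage in a genotype, the members varied together to different degrees. Pearson correlations of log2(CPM + 5) were 0.85 for Lef1 with Nkd1, 0.83 for Lef1 with Tcf7, 0.80 for Axin2 with Nkd1, 0.77 for Axin2 with Lef1, 0.76 for Axin2 with Znrf3 and 0.72 for Axin2 with Sp5. Sp5 had 0.45 with Lef1 and 0.35 with Tcf7, Notum 0.62 and Apcdd1 0.52 with Lef1. The lowest values were −0.19 for Bambi with Sp5 and, for Rnf43, −0.09 with Nkd1, −0.03 with Apcdd1, −0.02 with Lef1, 0.01 with Bambi and 0.07 with Tcf7, followed by 0.09 for Bambi with Axin2 and 0.14 for Rnf43 with Axin2. The points share samples and the low erythroid-positive cells, so the values are descriptions. Among 6312 genes with a mean of at least 20 CPM over these points, those most like Axin2 were Sdc1 (0.86, a cell-surface proteoglycan), Rfc1 (0.85, a DNA replication factor), Greb1 (0.85), Gli3 (0.85, a Hedgehog-pathway transcription factor) and Gja1 (0.83, the gap junction protein connexin 43). The members stood at rank 27 (Nkd1), 71 (Lef1) and 99 (Znrf3), and by the same measure at 278 (Sp5), 422 (Tcf7), 1769 (Notum), 2978 (Apcdd1), 4803 (Rnf43) and 5020 (Bambi), of which all but Bambi had a mean under 20 CPM and were outside the 6312 genes.

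Positions are those of GENCODE M21 (GRCm38), whose gene symbols were matched to the matrix. Axin2 lies at chr11:108920349-108950783, Lef1 at chr3:131110471-131224356, Nkd1 at chr8:88521354-88594884, Sp5 at chr2:70474923-70477729, Tcf7 at chr11:52252371-52283014, Notum at chr11:120653788-120661175, Rnf43 at chr11:87662722-87735539 and Znrf3 at chr11:5276324-5444847. Apcdd1 and Bambi lie on chromosome 18. The values are whole-gene counts and do not tell exon from intron. Some members overlap other genes whose reads may be split between them, since use of strand in counting is not given in the sources used here: Notumos, antisense to Notum, has 124 UMIs beside 1029 of Notum, and 1110028F11Rik, inside Rnf43, has 83 beside 130. A630014C17Rik (215 UMIs) overlaps Tcf7 (7348) and Gm43352 (200) overlaps Lef1 (13407). Bambi has a processed pseudogene, Bambi-ps1, with 40 UMIs.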

How the data were processed

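Single-cell libraries (10x Chromium v3, 3 pooled runs, MULTI-seq barcodes) were mapped with kallisto and bustools 0.46.1, per the submitters' processing notes, which also name Cell Ranger and the build GRCm38. The deposited file is one matrix of UMI counts that the authors made, not normalized, with a table of barcode, stage and genotype for each of 14777 cells. Counts were summed per barcode sample (22) and, where at least 20 cells were positive, per lineage. Genotype and stage were tested with edgeR 4.0.16 (R 4.3.3; quasi-likelihood F test, filterByExpr, TMM, two-sided, stage and run as terms in the genotype fits over more than 1 stage or run, Benjamini-Hochberg over all genes tested, threshold 0.05). Alternatives were DESeq2 1.42.0, its size factors in edgeR, no filter, Y-linked share as covariate, samples, runs, stages or erythroid-positive cells left out, run as a term, and 4 of 6 markers. The fit on cells positive for no lineage was added after seeing the data. The scripts were tested on simulated data. Summaries used Python 3.11.15.

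All 10 members entered each comparison where their counts allowed, with Wls as the check; of endothelial-positive, erythroid-positive and lineage-negative cells the range or lowest value and single members are given. Of the 3 pathway lists, genes that passed are named, at most 6 per comparison by size of the log2 fold change. Over time in mutants Rspo3 and Pygo1 are named beyond these 6, and the other target that rose is left unnamed. The members and lists were chosen with earlier results of these data known. Intervals of single samples cover counting error only.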

Additional observations from a re-analysis of the deposited data

Results flagged for a closer look

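Among 80 groups of 4 to 6 samples, 9 held a sample far from the others of its group by Dixon's gap test. Chance gives such a sample in about 1 of 20 groups of continuous values, a rate that does not hold for low counts: in 4 of the 9 groups all other samples were at 0. Sp5 gave 4 of them. Over all cells the E9.5 control Bar6 (6 cells) had 52.1 CPM from 7 UMIs, while the other controls had 6.95 to 12.2 CPM. In paraxial mesoderm-positive cells the E9.5 control Bar4 had 56.1 CPM of Sp5 from 45 UMIs, with the others at 7.41 to 14.4 CPM. In cardiomyocyte-positive cells Bar4 had 6.32 CPM from 4 UMIs (others 0 to 1.46 CPM), and the E9.5 mutant Bar10 had 2.97 CPM from 1 UMI (others 0).

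The other 5 were of small counts or small gaps. Nkd1 was 17.8 CPM from 6 UMIs in cardiomyocyte-positive cells of the E9.5 mutant Bar10, with the others at 8.86 to 11.0 CPM. Znrf3 was 44.8 CPM from 52 UMIs in paraxial mesoderm-positive cells of the E9.5 control Bar9, below the others at 54.4 to 56.1 CPM. In cardiomyocyte-positive cells of E9.5 mutants, Notum was 1.12 CPM in Bar19 and Rnf43 was 1.83 CPM in Bar21, each from 1 UMI with the others at 0. In erythroid-positive cells Notum was 0.84 CPM in the E9.5 control Bar23, from 4 UMIs, with the others at 0.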

How the results depend on the processing

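Sp5 kept its fall over time in mutants under all 6 alternatives and all 9 left-out samples. Bambi passed over all stages with DESeq2 size factors, with DESeq2 and without samples of fewer than 20 cells, so that 1 member instead of 0 was called (0 to 1 with each sample left out). At E9.5 the count of members called was 1 with both of these, without the filter, with the Y-linked share as covariate and without samples of fewer than 20 cells (0 to 1 with each sample left out; Bambi passed without Bar4, Bar6, Bar20 or Bar21). Over time in mutants DESeq2 called 4 members and the fit without the filter 1, and 1 to 2 were called with each sample left out. Counts over all genes ranged under the alternatives from 1 to 3274 over all stages, 0 to 45 at E8.0, 58 to 2701 at E9.5, 32 to 669 for the interaction, 458 to 1077 over time in controls and 2462 to 4261 in mutants. With each sample left out they were 1259 (Bar23) to 2479 over all stages, 1 (Bar24 or Bar27) to 10 (Bar29) at E8.0, 603 (Bar23; also Bar22 704, Bar19 1103, Bar9 1110) to 2353 at E9.5, 29 (Bar25; 39 to 54 without Bar27, Bar28, Bar23, Bar22, Bar26 or Bar10) to 137 (Bar20) for the interaction, 181 (Bar24; also Bar29 211, Bar9 326) to 705 over time in controls and 807 (Bar25; also Bar28 908, Bar27 1285, Bar19 1632, Bar21 1655) to 3195 in mutants. By lineage they were 56 (Bar23; 78 to 191 without Bar22, Bar3, Bar1, Bar19, Bar24 or Bar9) to 395 for cardiomyocyte, 44 (Bar23; 49 to 253 without Bar22, Bar1, Bar3, Bar20, Bar19 or Bar21) to 763 for paraxial mesoderm, 0 to 22 (Bar26) for endothelial, 0 to 8 (Bar20) for erythroid, 2 to 32 (Bar29) for anterior and 1 to 36 (Bar29) for posterior second heart field. Values of single members whose direction turned were not called in either fit, and the cause was not tested. Without E8.5 these were Axin2 0.010, Nkd1 0.038 and Tcf7 0.019 over all stages. In run 1 alone these were Axin2 0.023, Lef1 0.064 and Nkd1 0.026 over all stages, Tcf7 −0.010 at E9.5, Tcf7 −0.011, Notum 0.10 and Apcdd1 −0.28 for the interaction and Axin2 0.22 and Bambi 0.062 over time in controls. In run 3 alone these were Lef1 0.079, Nkd1 0.26, Tcf7 0.20 and Znrf3 0.065 over all stages and Lef1 0.079, Nkd1 0.26 and Znrf3 0.067 at E9.5. With DESeq2 size factors these were Tcf7 0.030 over all stages and Znrf3 −0.0042 at E8.0. With DESeq2 these were Tcf7 0.011 over all stages and Znrf3 −0.0058 at E8.0. With the Y-linked share as covariate these were Tcf7 0.042 and Notum −0.15 over all stages, Lef1 −0.19, Sp5 −0.85, Znrf3 −0.17 and Bambi −0.078 at E8.0, Nkd1 0.079 at E9.5 and Tcf7 −0.0048 and Apcdd1 −0.023 for the interaction. With no filter these were Notum −0.0046 over all stages, Tcf7 0.0015 at E8.0, Tcf7 −0.0013 and Apcdd1 −0.053 for the interaction and Znrf3 −0.0093 over time in mutants. Without erythroid-positive cells these were Notum −0.058 over all stages, Sp5 −0.032, Znrf3 −0.017 and Bambi −0.058 at E8.0 and Notum 0.16 for the interaction. Without E8.0 these were Notum −0.12 over all stages. Without E9.5 these were Notum −0.11 over all stages. In run 2 alone these were Notum −1.22 over all stages and Axin2 0.50 and Nkd1 0.083 at E9.5. With run as a term these were Axin2 0.23 and Bambi 0.064 over time in controls. Without samples of fewer than 20 cells these were Bambi 0.036 over time in controls. With 4 of 6 markers these were Sp5 0.43 in paraxial mesoderm-positive cells and Lef1 0.027, Apcdd1 0.14 and Bambi −0.0047 in posterior second heart field-positive cells. With each sample left out, the log2 fold changes that turned ranged over all stages Axin2 −0.14 to 0.0084, Nkd1 −0.10 to 0.037, Tcf7 −0.049 to 0.018 and Notum −0.13 to 0.19. At E8.0 Sp5 −0.054 to 0.41, Tcf7 −0.061 to 0.061, Notum −0.068 to 0.42, Znrf3 −0.10 to 0.067 and Bambi −0.045 to 0.20 with each sample left out. At E9.5 Nkd1 −0.10 to 0.047 and Tcf7 −0.026 to 0.15 with each sample left out. For the interaction Tcf7 −0.022 to 0.11, Notum −0.24 to 0.25 and Apcdd1 −0.093 to 0.12 with each sample left out. Over time in controls Axin2 −0.10 to 0.063 and Bambi −0.18 to 0.065 with each sample left out. Over time in mutants Znrf3 −0.043 to 0.11 with each sample left out. In cardiomyocyte-positive cells Bambi −0.081 to 0.035 with each sample left out. In erythroid-positive cells Axin2 −0.31 to 0.39 and Apcdd1 −0.092 to 0.28 with each sample left out. In endothelial-positive cells Axin2 −0.072 to 0.28, Nkd1 −0.064 to 0.23, Znrf3 −0.022 to 0.25 and Bambi −0.044 to 0.19 with each sample left out. In paraxial mesoderm-positive cells Axin2 −0.022 to 0.088, Sp5 −0.22 to 0.15 and Apcdd1 −0.0022 to 0.28 with each sample left out. In anterior second heart field-positive cells Nkd1 −0.16 to 0.36, Sp5 −0.91 to 0.42 and Znrf3 −0.13 to 0.057 with each sample left out. In posterior second heart field-positive cells Nkd1 −0.16 to 0.075 and Tcf7 −0.00065 to 0.093 with each sample left out. In all, 442 values under the alternatives and 1220 with a sample left out kept direction and call. The fit with 4 of 6 markers could not be fitted in anterior second heart field-positive cells, and no sample was left out for the cells positive for no lineage. No paired analysis was possible because the replicate numbers in the labels name 3 pooled runs, each with both genotypes, and no number ties a control barcode to a mutant one.

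Depth limits Rnf43 (130 UMIs in all) and Notum, whose values per sample rest on few UMIs, and Axin2, Sp5 and, at E9.5, Lef1 in cardiomyocyte-positive cells. Samples of few cells, above all the E9.5 control of 6 cells, carry wide counting intervals. Lineages rest on 3 of 6 markers per cell, so 6306 cells entered none.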
